A study of Mus musculus with 4 samples.

Results

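Lysosomal enzymes and membrane proteins were examined in monocytes of old and young mouse bone marrow. The 41 genes were taken by symbol from the deposited tables, which hold 31017 gene symbols. All 41 were found there and all passed the filter on low counts, among 12035 genes tested. They comprise 10 peptidases, 10 glycosidases and sulfatases, 9 genes for the handling of lipids (with progranulin) and 9 membrane proteins. The last 3 are the MiT transcription factors Tfeb, Tfe3 and Mitf. Bulk RNA sequencing had been done on monocytes isolated by flow cytometry from wild-type C57BL/6 mice, with 2 libraries at 18 months (aged) and 2 at 3 months (young). By its title, the study asked how the age of the marrow bears on the clonal make-up of smooth muscle-derived cells in plaques. The labels give atherosclerosis as the disease of every library, aged and young, without saying whether the marrow donors carried plaques. The sources used here give neither the sort gate nor any pooling of animals, and no label says that the libraries of an age came from separate mice. What the p-values measure is therefore the spread among these 4 libraries, and part or all of it may be technical. In bulk RNA, fewer cells of a type and less RNA per cell cannot be told apart.

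Lysosomes are the acid compartments in which proteins, glycans and lipids taken up or discarded by the cell are degraded. Soluble hydrolases do the degrading, the membrane proteins shield, acidify and empty the compartment, and in monocytes and macrophages the cathepsins also process antigens for presentation. Many lysosomal genes carry the CLEAR element (coordinated lysosomal expression and regulation), to which the MiT factors TFEB, TFE3 and MITF bind.

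The middle of the CLEAR element, TCACGTGA, and its core CACGTG were searched in promoter windows of 300 bases, from 250 before to 50 after each RefSeq transcription start (GRCm38.p6). Both motifs are palindromes, so one strand covers both, and each TCACGTGA contains a CACGTG. Windows were held for 37 of the 41 members, the exceptions being Asah1, Ctsb, Ctsh and Npc1. Among these 37 genes, 12 (32.4%) had CACGTG in at least 1 window and 5 (13.5%) had TCACGTGA, against 8.09% and 1.12% of the 27025 genes in the promoter table. Counted by window, the shares were 26.1% and 10.9% of 46 member windows, against 7.15% and 0.974% of all 32851. Some lysosomal promoters served to define the CLEAR element in earlier work, so these shares are a description of the set. The stretches of 100 bases that follow show the 5 members with the longer element, then Lgmn, a member with the core that rose with age, and Lamp1, the member with the most copies of the core. They run 5′ to 3′ on the strand of the gene, and capitals mark TCACGTGA or, outside it, CACGTG.
Ctsa: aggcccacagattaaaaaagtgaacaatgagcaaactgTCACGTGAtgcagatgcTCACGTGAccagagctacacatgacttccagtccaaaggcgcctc
Ctsd: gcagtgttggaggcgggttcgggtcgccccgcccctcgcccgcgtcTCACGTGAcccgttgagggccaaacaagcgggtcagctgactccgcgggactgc
Mcoln1: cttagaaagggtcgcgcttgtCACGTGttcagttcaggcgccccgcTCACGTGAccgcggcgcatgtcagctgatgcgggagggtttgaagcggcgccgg
Cln3: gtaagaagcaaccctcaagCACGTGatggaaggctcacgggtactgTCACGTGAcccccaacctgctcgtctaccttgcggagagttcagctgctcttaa
Gla: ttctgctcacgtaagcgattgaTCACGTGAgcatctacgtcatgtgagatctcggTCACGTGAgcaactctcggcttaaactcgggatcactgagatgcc
Lgmn: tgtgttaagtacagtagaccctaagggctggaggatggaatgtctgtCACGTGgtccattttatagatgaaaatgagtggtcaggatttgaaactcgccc
Lamp1: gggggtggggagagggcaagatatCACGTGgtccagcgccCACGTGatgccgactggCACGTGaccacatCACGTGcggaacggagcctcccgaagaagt

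These stretches lie at chr2:164833722-164833821 (plus strand) for Ctsa, chr7:142387873-142387972 (minus) for Ctsd, chr8:3500427-3500526 (plus) for Mcoln1, chr7:126583305-126583404 (minus) for Cln3, chrX:134601156-134601255 (minus) for Gla, chr12:102439089-102439188 (minus) for Lgmn and chr8:13159076-13159175 (plus) for Lamp1. Copies of the core began between 245 bases before the start site (Ctsd) and 6 bases after it (Ctsa), and Lamp1 held 4 copies within the last 61 bases before its start. Ctsa, Cln3 and Lgmn have 2 RefSeq windows each, and only 1 of the 2 held a CACGTG.

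**Figure D1:**
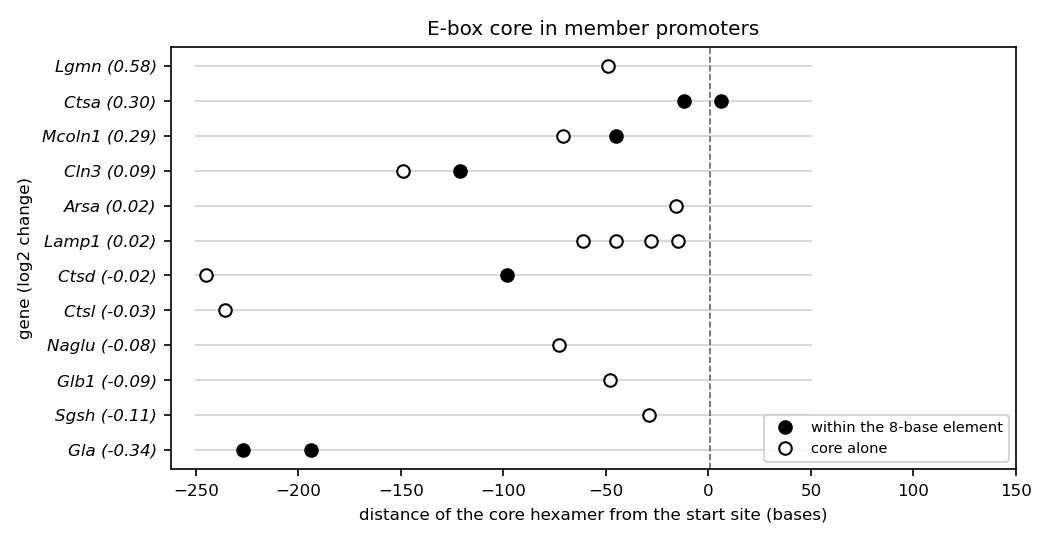
Position of each core hexamer (x axis, bases from the RefSeq start site, dashed) in the 12 member promoters that hold it, 1 line per gene with its log2 change, aged over young, in brackets. Filled circles mark copies inside the 8-base element and open circles the core alone; genes with the element range from Gla (-0.34) to Ctsa (0.30).

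Lysosomal transcripts made up a slightly larger part of the aged libraries. The 41 members held 2.55% and 2.55% of all counts in the aged libraries (95% Wilson intervals 2.54 to 2.56% in both) and 2.34% and 2.38% in the young ones (2.34 to 2.35% and 2.38 to 2.39%). Both aged libraries lay above both young ones. These intervals treat each count as an independent draw and leave out the spread between libraries. Amplified reads are not independent molecules, so the intervals can be too narrow even for counting error. Over genes, the 2 libraries of an age had a chi-square per degree of freedom of 9.79 (aged) and 12.7 (young) against counting error. The library totals ranged from 20159129 to 34278754 counts. On the CPM scale, which divides counts by a library size scaled with TMM factors, the members summed to 25350 and 25614 in aged and 23259 and 24097 in young libraries.

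Of the 41 genes, 9 were higher and 1 was lower in aged monocytes at an adjusted p under 0.05 (edgeR quasi-likelihood test, Benjamini-Hochberg over all tested genes), while 31 did not pass. The members' shares were 22.0% higher and 2.44% lower, against 2.87% higher and 2.89% lower (5.77% in either direction) over all 12035 genes. Among genes with a mean of at least 100 CPM the background was 5.16% higher and 6.96% lower, and of the 25 members at that level 7 were called higher and none lower. DESeq2 and limma-voom also called 9 members higher and 1 lower. The median log2 change (aged over young) was 0.080 for the members and -0.0044 for all tested genes, and 27 members had a positive change, as had 49.3% of all tested genes. The aged and young values did not overlap in 27 members, with the aged pair above in 19 and below in 8. Over all genes 51.6% did not overlap, 25.9% with the aged pair above and 25.7% with it below. Apart from Gpnmb, the calls were small, from 0.748-fold (Arsb) to 1.49-fold (Lgmn), and 9 of the 10 did not pass without young replicate 1, the deepest library. With a library left out, 1 age is a single library that is assumed to vary like the other age, so a lost call need not mean a smaller change. Without young replicate 1 Gpnmb alone passed, and the adjusted p (edgeR) of the other 9 ranged from 0.0559 to 0.329. The log2 changes of the 8 higher genes among them were then 0.16 (Ctsc) to 0.58 (Lgmn), against 0.23 to 0.58 with all libraries, and that of Arsb was -0.39, against -0.42. Of the 10 calls, 5 were still made without aged replicate 2, 7 without young replicate 2 and all 10 without aged replicate 1.

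**Figure D2:**
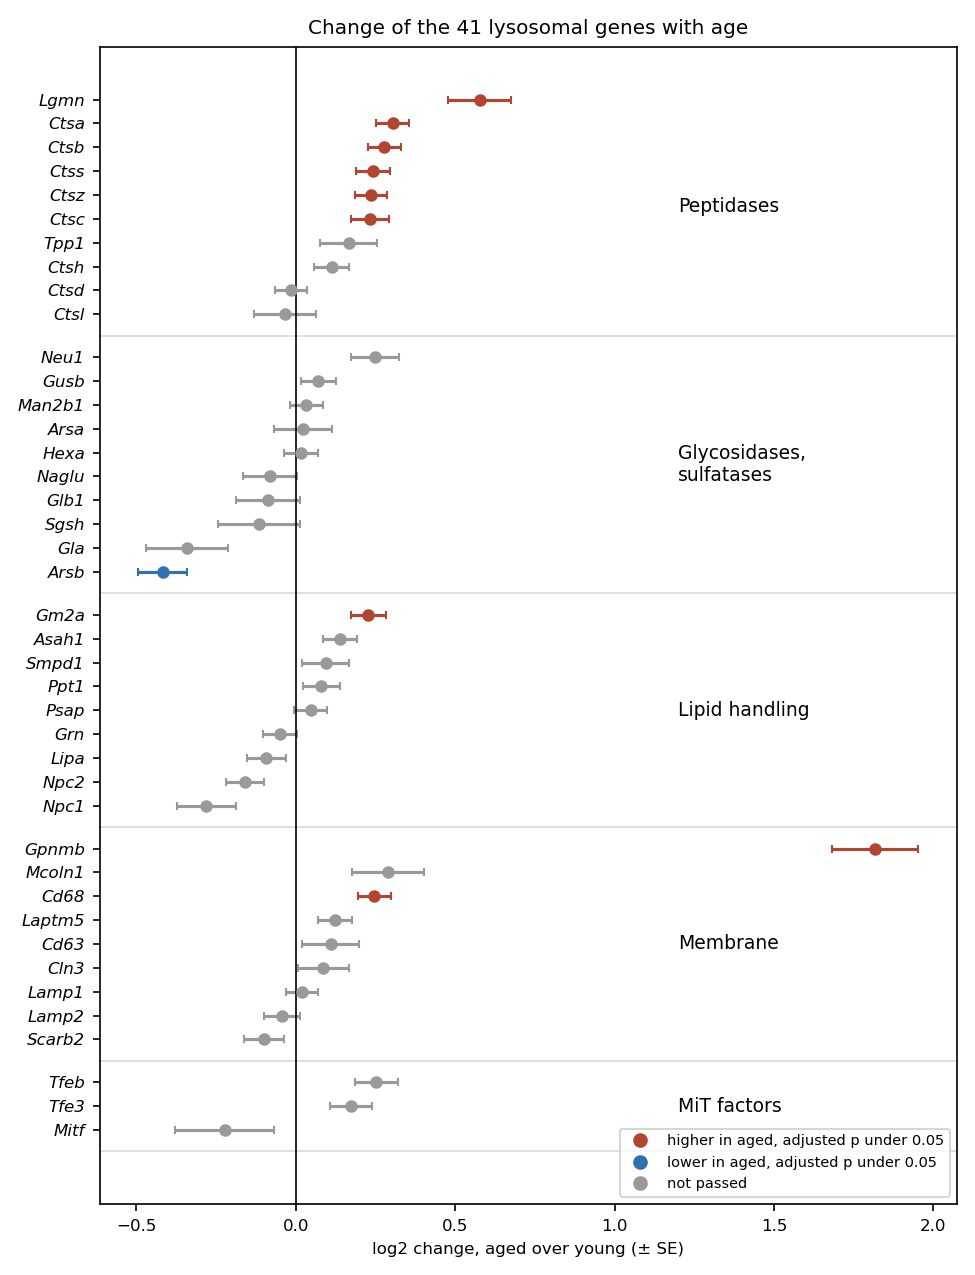
Log2 change, aged over young (x axis), of the 41 genes by role, with bars for the standard error (2 libraries per age). Red marks the 9 genes called higher, blue the 1 called lower (Arsb) and grey the 31 that did not pass; 6 of the red points are peptidases, and Gpnmb lies apart at 1.82.

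The peptidases, which cut proteins and peptides, held most of the members called higher. Of 10 members 6 were higher and none lower, with a median log2 change of 0.23. This subset was counted after the data were seen. Over all tested genes 2.87% were higher and 2.89% lower. Among genes with a mean of at least 100 CPM the shares were 5.16% and 6.96%. The 10 peptidases together took 0.737% and 0.746% of the counts in the aged libraries (95% Wilson intervals 0.734 to 0.741% and 0.743 to 0.750%). In the young ones they took 0.626% and 0.639% (0.623 to 0.628% and 0.636 to 0.643%). Whether this role group differed from the others was not tested. With 1 age reduced to a single library, the count of 6 was 3 without aged replicate 2, 4 without young replicate 2 and 0 without young replicate 1. In the last of these fits the 6 genes had log2 changes of 0.16 to 0.58.

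Lgmn encodes legumain, the asparaginyl endopeptidase that trims antigens and processes cathepsins (chromosome 12, 102394084 to 102439813, minus strand, GRCm38). It measured 72.4 and 88.9 CPM in aged and 54.2 and 53.9 CPM in young libraries, with the aged pair further apart than the young pair but above it. The log2 change was 0.58 ± 0.10 (SE, n = 2 per age; edgeR adjusted p = 0.00867). Of the peptidases it changed most, and its adjusted p was 0.0559 without young replicate 1.

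Ctsa encodes cathepsin A, the serine carboxypeptidase that also shields β-galactosidase and neuraminidase in a complex (chromosome 2, 164832873 to 164841032, plus strand). It gave 661 and 672 CPM in aged against 530 and 551 CPM in young libraries. The groups did not overlap, and the log2 change was 0.30 ± 0.053 (edgeR adjusted p = 0.00866; 0.0936 without young replicate 1). The exons of Ctsa overlap those of Pltp on the other strand by 495 bases, and no source used here states which strand setting the counting had. Pltp itself averaged 60.7 CPM in aged and 24.3 CPM in young libraries, and its part in the Ctsa counts was not tested.

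Ctsb encodes cathepsin B, an abundant cysteine peptidase that acts both as an endopeptidase and as a carboxypeptidase (chromosome 14, 63122462 to 63145923, plus strand). It stood at 2013 and 2083 CPM in aged and 1649 and 1730 CPM in young libraries. The 2 ages were separate, by 0.28 ± 0.051 on the log2 scale (edgeR adjusted p = 0.0120; 0.0964 without young replicate 1). Its exons overlap those of Fdft1 on the other strand, which lay between 22.9 and 26.2 CPM in the 4 libraries. Among the other called members, Ctsz shares 10 exonic bases with Nelfcd on the other strand, and Arsb 1948 with Gm26527, which had 0 counts in each library, and 463 with Gm47210, for which no values were used here.

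Ctss encodes cathepsin S, which cuts the invariant chain of MHC class II (chromosome 3, 95526786 to 95556403, plus strand). Its values were 1303 and 1406 CPM in aged and 1152 and 1139 CPM in young libraries, a log2 change of 0.24 ± 0.054 (edgeR adjusted p = 0.0294). Ctsz encodes cathepsin X, a carboxypeptidase (chromosome 2, 174427493 to 174439039, minus strand). It had 614 and 625 CPM in aged and 525 and 528 CPM in young libraries, a log2 change of 0.24 ± 0.051 (edgeR adjusted p = 0.0257). The ages did not overlap in either gene, although the aged replicates of Ctss lay further apart than those of Ctsz. Both lost their call without aged replicate 2 (edgeR adjusted p = 0.102 for Ctss and 0.0641 for Ctsz), young replicate 1 (0.133 and 0.175) or young replicate 2 (0.0853 and 0.0901). In these 3 fits the log2 change was 0.18 to 0.25 for Ctss and 0.22 to 0.24 for Ctsz.

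Ctsc encodes the dipeptidyl peptidase that activates the serine proteases of granules (chromosome 7, 88278085 to 88310888, plus strand). It measured 1379 and 1338 CPM in aged and 1096 and 1215 CPM in young libraries. The young pair was the wider one here, and the log2 change of 0.23 ± 0.059 lay just inside the threshold (edgeR adjusted p = 0.0478). It did not pass when aged replicate 2 (log2 change 0.25, edgeR adjusted p = 0.0563) or young replicate 1 (0.16, 0.329) was left out.

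The other 4 peptidases did not pass. Ctsh, an aminopeptidase, gave 0.11 ± 0.054 and Tpp1, the tripeptidyl peptidase lost in a childhood storage disease of neurons, 0.17 ± 0.089 on the log2 scale. Ctsd, the major aspartic protease of lysosomes, was at 458 and 458 CPM in aged and 466 and 460 CPM in young libraries, a log2 change of -0.015 ± 0.052. Ctsl had the lowest level per length of the 8 cathepsins among the members, at 15.4 and 16.2 TPM (a depth-scaled unit of counts over exon length) in aged and 16.9 and 15.2 TPM in young libraries. Its log2 change was -0.033 ± 0.097, with overlapping groups. The edgeR adjusted p of these 4 genes ranged from 0.265 to 0.904.

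**Figure D3:**
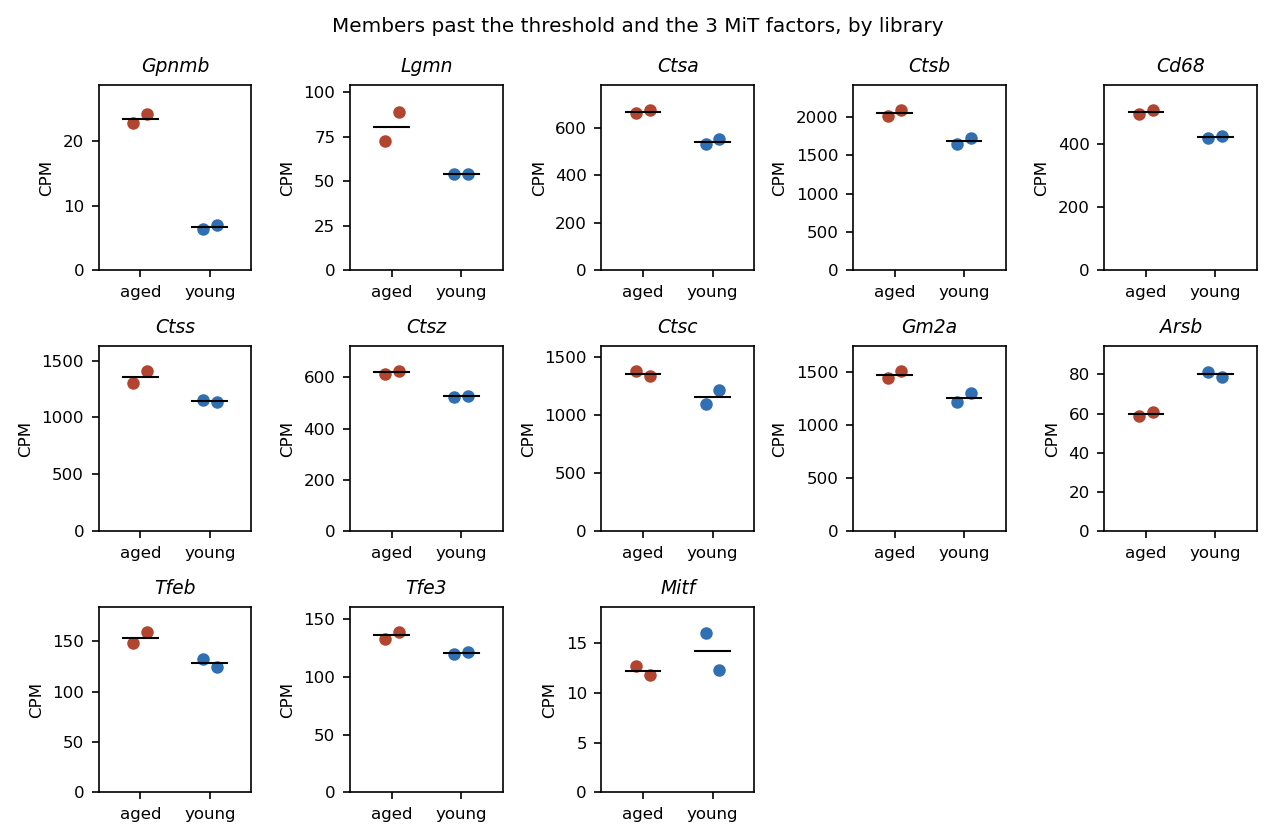
CPM in each library (points) and mean of the 2 libraries of an age (line), aged left and young right, for the 10 members past the threshold and the 3 MiT factors; each y axis starts at 0. The ages do not overlap in any of the 10, with Gpnmb at 22.7 and 24.0 CPM in aged and 6.31 and 7.02 CPM in young libraries and Arsb the only one lower in aged libraries.

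Glycosidases and sulfatases take sugars and sulfate groups off glycans. None of the 10 was called higher (edgeR, DESeq2 or limma-voom), 1 was lower and the median log2 change was -0.033. Over all tested genes 2.87% were higher and 2.89% lower. Of the 10 changes 5 were positive and 5 negative. An unadjusted edgeR p under 0.05 was found for 3 of the 10, beside 2536 of all 12035 tested genes. Arsb, the sulfatase of dermatan and chondroitin sulfate (chromosome 13, 93771630 to 93943016, plus strand), had 58.9 and 60.8 CPM in aged and 81.2 and 78.6 CPM in young libraries. Both pairs were tight and apart, and Arsb fell by 0.42 on the log2 scale (SE 0.075; edgeR adjusted p = 0.0106, or 0.109 without young replicate 1). Gla, the α-galactosidase lost in Fabry disease, had the next most negative change, at 15.9 and 14.4 CPM in aged and 18.0 and 20.5 CPM in young libraries, but did not pass (-0.34 ± 0.13, edgeR adjusted p = 0.160).

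Neu1, the sialidase, was the glycosidase with the most positive change. It had 94.0 and 99.99 CPM in aged and 78.8 and 84.6 CPM in young libraries, without overlap, and a log2 change of 0.25 ± 0.075 that did not pass (edgeR adjusted p = 0.0856; 0.0472 with no low-count filter and 0.0454 without aged replicate 1). With the replicate number fitted as a block Neu1 also passed (edgeR adjusted p = 0.00874). Glb1, whose β-galactosidase activity is widely used to stain senescent cells, was at 48.1 and 53.2 CPM in aged and 49.4 and 58.4 CPM in young libraries. Its ages overlapped, with a log2 change of -0.087 ± 0.10 (edgeR adjusted p = 0.671). The remaining members were Hexa, the α chain of β-hexosaminidase, Gusb, Man2b1, the heparan sulfate enzymes Naglu and Sgsh, and Arsa, the sulfatide sulfatase. Over all 9 members of this role that did not pass, changes ranged from -0.34 to 0.25.

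Among the genes for lipids, which include the most abundant member, 1 of 9 was called higher and none lower. Over all tested genes 2.87% were higher and 2.89% lower. An unadjusted edgeR p under 0.05, in either direction, was found for 4 of the 9, beside 2536 of all 12035 tested genes. Gm2a, the activator that presents ganglioside GM2 to hexosaminidase (chromosome 11, 55098115 to 55113029, plus strand), had 1441 and 1507 CPM in aged and 1215 and 1304 CPM in young libraries. The pairs did not overlap, and the log2 change was 0.23 ± 0.055 (edgeR adjusted p = 0.0415). The call ended when aged replicate 2 (edgeR adjusted p = 0.113) or young replicate 1 (0.287) was left out. Hexa, the enzyme subunit that Gm2a serves, was at 535 and 551 CPM in aged and 541 and 533 CPM in young libraries (0.016 ± 0.052), with overlapping ages.

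Psap, the precursor of the saposins that aid sphingolipid hydrolases, had 5874 and 5623 CPM in aged and 5400 and 5729 CPM in young libraries (log2 change 0.047 ± 0.051, edgeR adjusted p = 0.652), and the ages overlapped. Its mean of 5937 TPM placed it at rank 12 of all genes by length-corrected level. Grn, the precursor of granulins, had 1276 and 1367 CPM in aged and 1364 and 1372 CPM in young libraries (-0.050 ± 0.053, edgeR adjusted p = 0.640), again with overlap. Lipa, Npc2 and Npc1, which release and export cholesterol from lysosomes, were grouped here after their values were seen. All 3 had negative changes that did not pass. These were -0.093 ± 0.062 for Lipa, the acid lipase of cholesteryl esters, -0.16 ± 0.061 for Npc2, the soluble sterol carrier, and -0.28 ± 0.091 for the membrane transporter Npc1 (edgeR adjusted p = 0.427, 0.165 and 0.108). In all 3 the aged pair lay below the young pair, as in Npc1 with 38.9 and 41.1 CPM in aged and 50.8 and 46.2 CPM in young libraries. The same held for 25.7% of all tested genes. Npc1 (edgeR adjusted p = 0.0213) and Npc2 (0.0351) passed only with the replicate number fitted as a block. Asah1, Smpd1 and Ppt1, which act on ceramide, sphingomyelin and palmitoylated proteins, gave 0.14 ± 0.053, 0.094 ± 0.074 and 0.080 ± 0.059 and did not pass either.

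Gpnmb had the largest change of the 41. The gene encodes a transmembrane glycoprotein of endosomes and lysosomes that is known from lipid-laden macrophages and as a target of MITF (chromosome 6, 49036546 to 49070929, plus strand). It measured 22.7 and 24.0 CPM in aged libraries, against 6.31 and 7.02 CPM in young ones, which is 23.4 ± 0.911 against 6.67 ± 0.505 CPM (SD, n = 2 per age). Both aged values were over 3 times both young ones, and the log2 change was 1.82 ± 0.13 (edgeR adjusted p = 2.33e-05). Its change stayed between 1.73 and 1.89 under the 12 alternatives in processing, and it was called in all of them. Gpnmb was also among the least expressed members per length, at 10.2 and 10.6 TPM in aged and 2.79 and 3.08 TPM in young libraries, rank 40 of 41 by mean TPM.

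Cd68, a heavily glycosylated relative of the LAMP proteins used as a macrophage marker (chromosome 11, 69664213 to 69666153, minus strand), had 495 and 508 CPM in aged and 419 and 426 CPM in young libraries. The ages were separate, with a log2 change of 0.25 ± 0.052 (edgeR adjusted p = 0.0233), but the call was lost without aged replicate 2 (0.063), young replicate 1 (0.185) or young replicate 2 (0.0736). Laptm5, a membrane protein of immune cell lysosomes and the second most abundant member in CPM, had 2906 and 3029 CPM in aged and 2633 and 2815 CPM in young libraries (0.12 ± 0.053, edgeR adjusted p = 0.217).

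The main structural proteins of the lysosomal membrane did not pass. Lamp1 was at 1223 and 1191 CPM in aged and 1199 and 1184 CPM in young libraries, a log2 change of 0.019 ± 0.050, and Lamp2, which also serves chaperone-mediated autophagy, gave -0.044 ± 0.056. Both had overlapping ages, with edgeR adjusted p = 0.868 for Lamp1 and 0.701 for Lamp2. Mcoln1, the calcium channel TRPML1, gave 0.29 ± 0.11 at 24.6 and 26.9 CPM in aged and 22.1 and 19.8 CPM in young libraries, without overlap and without passing (edgeR adjusted p = 0.173). Cd63, a tetraspanin of late endosomes, Scarb2, the carrier of glucocerebrosidase, and Cln3 gave 0.11 ± 0.090, -0.10 ± 0.063 and 0.087 ± 0.080, and did not pass.

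**Figure D4:**
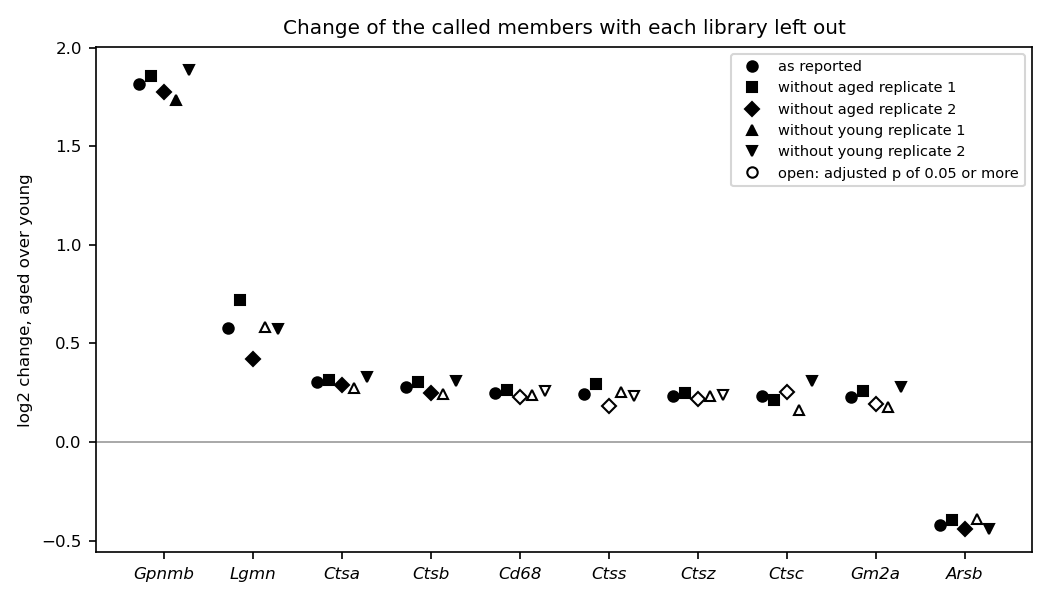
Log2 change, aged over young (y axis), of the 10 called members in the fit of all libraries and with each library left out in turn (symbols); open symbols have an adjusted p of 0.05 or more. Every point keeps the sign of the full fit, Gpnmb is filled throughout, and without young replicate 1 (upward triangles) the other 9 are open.

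None of the 3 MiT transcription factors among the members passed with edgeR, DESeq2 or limma-voom. Of the 3, 2 had an unadjusted edgeR p under 0.05, as had 2536 of all 12035 tested genes. Tfeb had 149 and 159 CPM in aged and 133 and 125 CPM in young libraries, a log2 change of 0.25 ± 0.068 that lay just outside the threshold (edgeR adjusted p = 0.0565; 0.0145 with no low-count filter and 0.0181 without aged replicate 1). Tfe3 had 133 and 139 CPM in aged and 120 and 122 CPM in young libraries (0.17 ± 0.065, edgeR adjusted p = 0.156). In both genes the aged pair was above the young pair. Tfeb also passed with the replicate number fitted as a block (edgeR adjusted p = 0.00181). Mitf was the member with the lowest level per length, with 12.6 and 11.8 CPM in aged and 16.0 and 12.3 CPM in young libraries (-0.22 ± 0.16, edgeR adjusted p = 0.454), and its ages overlapped. Of the 12 members with a CACGTG in a promoter window, 2 were higher (Lgmn and Ctsa) and none lower, with a median log2 change of 0.0021. Of the 25 with windows but no CACGTG, 6 were higher and 1 lower, with a median of 0.094, and Gpnmb was among these 25. Over all tested genes 2.87% were higher and 2.89% lower, with a median of -0.0044. Only exact copies of CACGTG were counted, and Ctsb, also called higher, had no window. Whether the motif bears on the changes was not tested.

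**Figure D5:**
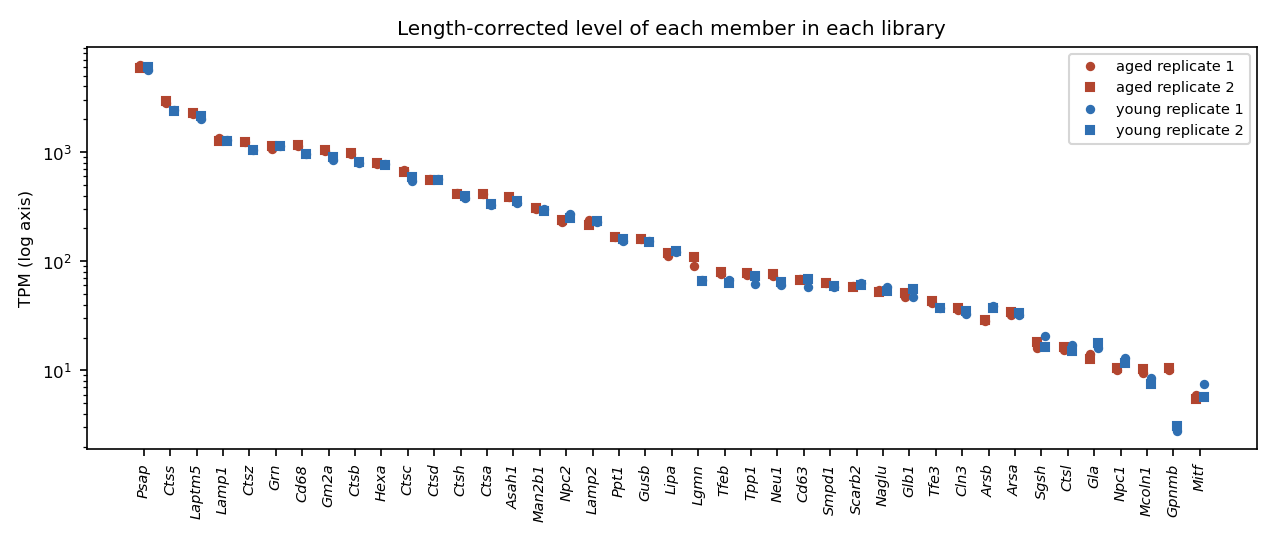
TPM (log axis) of each member in each library, ordered by the mean over the 4 libraries; red marks aged and blue young, circles replicate 1 and squares replicate 2. Levels run from 5937 TPM on average for Psap to 6.13 TPM for Mitf, and the gap between the ages is widest for Gpnmb.

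Levels spanned a wide range per length, on the TPM scale. After Psap came Ctss at 2797 and 2967 TPM in aged and 2447 and 2392 TPM in young libraries, Laptm5 at 2236 and 2292 TPM in aged and 2005 and 2121 TPM in young libraries, and Lamp1 at 1333 and 1276 TPM in aged and 1292 and 1263 TPM in young libraries. Neighbours further down the order often overlapped, as did Ctsz (1045 to 1243 TPM over the 4 libraries), Grn (1070 to 1133 TPM) and Cd68 (961 to 1158 TPM).

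Other genes of the lysosome were followed in 6 lists, 121 genes in all, of which 120 were in the tables and 119 were tested. In these 5 genes rose and 5 fell, 4.20% in each direction against 2.87% and 2.89% of all genes, and the median log2 change was 0.029. The proton pump had 2 of 18 subunits higher. Atp6v0d2, a subunit isoform best known from osteoclasts and macrophages, had 3.23 and 4.97 CPM in aged and 1.22 and 0.853 CPM in young libraries (1.94 ± 0.35, edgeR adjusted p = 0.0108; 0.0505 without aged replicate 2). Atp6v1d gave 0.28 ± 0.071 (edgeR adjusted p = 0.0482), and its call ended without aged replicate 2, young replicate 1 or young replicate 2 (edgeR adjusted p = 0.117 to 0.234), with DESeq2 (0.0589) or with library totals alone (0.0554).

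Of 40 further hydrolases 3 rose and 1 fell. Plbd1, a phospholipase B-like protein, had 765 and 756 CPM in aged and 559 and 547 CPM in young libraries (0.46 ± 0.051, edgeR adjusted p = 0.000628), and it passed with each library left out. Acp5, the tartrate-resistant acid phosphatase, rose by 0.73 ± 0.14 (edgeR adjusted p = 0.0131) and Plbd2 by 0.32 ± 0.080 (0.0436), while Ggh, which shortens polyglutamated folates, gave -0.29 ± 0.061 (0.0223). Acp5 was lost without young replicate 1 (0.108), Ggh without young replicate 1 (0.21) or 2 (0.0607), and Plbd2 without any 1 of aged replicate 2 and the young libraries (0.0903 to 0.25) or with library totals alone (0.0545).

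Of 12 genes for the delivery of enzymes to lysosomes 1 fell, Sort1, the receptor sortilin. It had 274 and 287 CPM in aged and 384 and 366 CPM in young libraries, a log2 change of -0.42 ± 0.058 (edgeR adjusted p = 0.00247), and passed with each library left out. The median log2 change of 12 genes that regulate TFEB was -0.23. An unadjusted edgeR p under 0.05, in either direction, was found for 7 of the 12, beside 2536 of all 12035 tested genes. At the threshold 3 fell and none rose, against 2.89% lower and 2.87% higher over all tested genes. They were Fnip1, at 43.8 and 43.9 CPM in aged and 58.8 and 62.1 CPM in young libraries (-0.46 ± 0.082, edgeR adjusted p = 0.0101), its paralogue Fnip2 (-0.45 ± 0.11, 0.0453), both partners of folliculin, and the kinase gene Mtor (-0.51 ± 0.11, 0.0250). Fnip1 was lost without young replicate 1 (0.0529) or 2 (0.0566), and Mtor without young replicate 1 (0.24). Fnip2 passed only without aged replicate 2 among the 4 fits that left out a library (0.0135, against 0.116 to 0.162), and it missed with upper-quartile factors (0.0515).

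None of 30 further membrane proteins and none of 7 cathepsin inhibitors passed. An unadjusted edgeR p under 0.05 was found for 7 of the 30 and 1 of the 7, beside 2536 of all 12035 tested genes. The smallest p belonged to Slc11a1, the metal transporter of phagosomes (0.19 ± 0.057, edgeR adjusted p = 0.0783), and to Cst7, an inhibitor of cathepsins that myeloid and cytotoxic cells make (-0.31 ± 0.12, edgeR adjusted p = 0.177). Among these 2 lists, DESeq2 and limma-voom called none.

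Markers of monocyte subsets moved with the same comparison. Of 14 markers of non-classical monocytes, the patrolling subset, 10 were higher and none lower, and they summed to 2220 and 2088 CPM in aged and 1658 and 1583 CPM in young libraries. The ages overlapped in 2 of the 14, Cx3cr1 (0.32 ± 0.16) and Spn, the only one with a negative change (-0.24 ± 0.12). Of 10 classical markers 5 were lower, with sums of 19115 and 19082 CPM in aged and 22799 and 23073 CPM in young libraries. The aged pair lay above the young pair in 2 of the 10, Ccr2 (0.17 ± 0.064) and Mmp8 (0.17 ± 0.055), and below it in 7. Limma-voom called 1 classical marker higher, edgeR and DESeq2 none. Of 12 tested markers of resident macrophages 3 were higher, among them C1qb at 30.2 and 30.1 CPM in aged and 10.6 and 10.8 CPM in young libraries. Of the 12, 5 had a negative change, the most negative being Slc40a1 (-0.30 ± 0.077, edgeR adjusted p = 0.0501). With edgeR none of the 12 was called lower, while DESeq2 and limma-voom each called 1 lower. The sums of that list overlapped, at 664 and 654 CPM in aged and 636 and 657 CPM in young libraries, and Timd4 and Marco lay at or under 0.201 CPM in each library. Of 12 dendritic cell markers 4 were called higher and none lower, while 3 of the 12 had a negative change. The aged pair lay above the young pair in 7 of these 12 and below it in 2. Of 9 tested B cell and plasma cell markers 6 rose. That list summed to 1113 and 1107 CPM in aged and 743 and 750 CPM in young libraries. Of 12 neutrophil markers 2 were higher (among them Ltf, 0.82 ± 0.051) and 5 lower (among them Elane, -0.33 ± 0.051). The 12 summed to 30730 and 31300 CPM in aged and 32196 and 30788 CPM in young libraries, with overlapping ages. Of 9 T and NK cell and 8 erythroid markers none passed with edgeR, DESeq2 or limma-voom. Among them 2 and 3 had an unadjusted edgeR p under 0.05, beside 2536 of all 12035 tested genes. Of 5 tested osteoclast markers 2 rose, Acp5 and Atp6v0d2, while Calcr had 0 counts and Oscar and Dcstamp were at or under 0.0460 CPM in each library. Of 9 general monocyte markers 1 was higher (Csf1r, 0.33 ± 0.049, edgeR adjusted p = 0.00429) and 1 lower (Ly6c2, -0.42 ± 0.052, edgeR adjusted p = 0.00118), and 6 had an unadjusted edgeR p under 0.05. Lyz2, the most abundant of them in CPM, lay between 32747 and 35199 CPM in the 4 libraries. The part of these markers in the lysosomal changes was not tested.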

How the data were processed

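The labels' protocols describe selection of mRNA with oligo-dT beads and a strand-specific kit that marks the second strand with dUTP. Each library has a deposited table of raw counts per gene symbol, which the authors did not normalize. Tools and builds listed in the submitters' processing notes are mm10, DESeq2, HTSeq, cutadapt and STAR (2.5.3), with no roles. No source used here names the annotation or the strand option of the counting. Totals were 24918091 and 21837261 counts in aged replicates 1 and 2 and 34278754 and 20159129 in young ones.

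Genes were kept by filterByExpr (minimum count 10, minimum total 15), scaled with TMM and tested for age, two-sided, with edgeR's quasi-likelihood F-test, adjusted by Benjamini-Hochberg over all tested genes at 0.05. The standard error is the log2 change divided by the square root of F. Positions and exon lengths for TPM came from GENCODE M21 (GRCm38, the mm10 assembly), where 30416 of 31017 symbols matched 1 gene, and promoters from RefSeq (GRCm38.p6). The procedure was also run on simulated counts, drawn with the same dispersion for every gene. The smallest change planted there was larger than that of most called members, so that run does not bear on them. Values per library are given for members past the threshold, the MiT factors and the 6 most abundant in CPM, with others named for their role. These others exceed the 6 that the rule allowed and were chosen after their values were seen. From each further lysosomal list up to 4 genes per direction are named, or the one with the smallest p. The members, lists and tests were chosen with earlier results of these data known. Alternatives were RLE and upper-quartile factors, library totals, 2 other filters, DESeq2 (1.42.0), limma-voom (limma 3.58.1), a block for the replicate number, and the omission of each library in turn. The test ran in edgeR 4.0.16 under R 4.3.3.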

Additional observations from a re-analysis of the deposited data

How the results depend on the processing

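The 9 higher and 1 lower members were called alike in number with RLE factors, upper-quartile factors, library totals, a minimum mean of 5 CPM, DESeq2 and limma-voom. With no low-count filter 11 were higher and 1 lower, and all genes called numbered 606 higher and 793 lower, against 346 and 348. With each library left out, higher members ranged from 1 to 11, lower ones from 0 to 1, higher peptidases from 0 to 6 (this subset was counted after seeing the data), further lysosomal genes from 2 to 5 higher and 1 to 5 lower, and all genes from 116 to 452 higher and 81 to 588 lower. With library totals alone 3 of the further lysosomal genes were higher.

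No label says that a replicate number marks a shared batch, and deviations of same-numbered libraries correlated at 0.0937 over genes. With 2 pairs, whether the numbers pair the libraries could not be settled, and the fit without the block was kept. With the replicate number as a block, 11 members were higher and 3 lower, the added ones being Tfeb (edgeR adjusted p = 0.00181), Neu1 (0.00874), Npc1 (0.0213) and Npc2 (0.0351), while the further lysosomal genes numbered 11 higher and 10 lower, and all genes 801 and 1016.

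Signs turned with a library left out for 8 members that were not called. The log2 change ranged from -0.099 to 0.042 for Ctsl (0.015 without aged replicate 1), from -0.0069 to 0.037 for Hexa, from -0.20 to 0.033 for Glb1, from -0.26 to 0.060 for Sgsh, from -0.036 to 0.081 for Arsa (-0.016 without young replicate 1), from -0.00013 to 0.037 for Lamp1, from -0.10 to 0.0089 for Lamp2 and from -0.014 to 0.24 for Cd63. The marker Cx3cr1 ranged from -0.023 to 0.60. The cause was not tested. Atp6v0d2 has no value under the minimum mean of 5 CPM. With 2 libraries per age, the calls other than Gpnmb, Lgmn and Arsb rest on changes of 1.17-fold to 1.23-fold.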
